A study of Mus musculus with 9 samples.

Results

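Efferocytosis, the engulfment of dying cells, is described here for 8 genes: the receptors Mertk, Axl, Tyro3, Timd4, Stab1 and Cd36 and the bridging ligands Gas6 and Pros1. They were chosen by gene name from 26770 gene rows, and all 8 had counts in every library and passed the filter on low counts. RNA was sequenced from spleen-derived monocytes of wild-type mice in 9 libraries, 3 per group. The first group received a low dose of lipopolysaccharide (LPS, a bacterial outer membrane component sensed by Toll-like receptor 4) as priming and then 20 µM octanal, an aldehyde odorant, for 18 hours by the series text and for 18, 19 and 20 hours by the labels of single samples. The dose and length of that priming are not stated apart from those of the second group, which received LPS alone at 40 ng/ml for 5 hours. The third group was untreated apart from the solvent DMSO, whose dilution the sample labels give as 1 in 1000, 1001 and 1002. DMSO is named for the untreated samples alone, and no age or sex of the mice is stated. Whether cells given LPS alone were cultured for as long as those given octanal is not stated either, so octanal and a longer culture cannot be told apart. Nothing in the labels says that replicates came from separate mice or cultures, so every p-value reflects just the spread among these libraries, which may be technical. The treated group with octanal is called LPS-octanal.

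Cells that die expose phosphatidylserine on their surface. Phagocytes detect it directly, through receptors such as Tim-4 (Timd4) and stabilin-1 (Stab1), or through the bridging proteins Gas6 and protein S (Pros1), which link it to the receptor tyrosine kinases Tyro3, Axl and Mertk, together called TAM. TAM signalling also restrains Toll-like receptor responses in macrophages and dendritic cells, and in the spleen Mertk and Tim-4 are known from resident macrophages.

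The libraries held 29594291 to 38388421 counts. Of the defining markers of classical monocytes, Ly6c2 averaged 0.875 CPM (counts scaled to library depth) in LPS-octanal, 2.95 in LPS and 140 in untreated libraries, with 2.82 to 249 CPM among the untreated libraries. Ccr2 averaged 1.50, 1.48 and 14.6 CPM in these groups, while Csf1r, a receptor of the monocyte and macrophage lineage, averaged 379, 231 and 402 CPM. Markers of other cells were present as well. The 15 neutrophil markers, of which 14 to 15 had counts in a library, summed to 5984 to 13555 CPM in LPS-octanal, 1868 to 2276 in LPS and 13653 to 26502 in untreated libraries. In LPS against untreated 14 of these 15 fell, where 17.6% of all genes fell. In that comparison all 9 T cell markers analysed rose, where 15.2% of all genes rose. The T cell sums were 1346 to 1991 CPM in LPS-octanal, 2010 to 2713 in LPS and 616 to 1457 in untreated libraries. In LPS-octanal against untreated 4 of the 15 neutrophil markers fell (6.03% of all genes). There 0 of the 9 T cell markers were called (8.67% of all genes). The 7 B cell markers analysed summed to 74.4 to 101 CPM in LPS-octanal, 132 to 179 in LPS and 92.0 to 311 in untreated libraries. Of these 7, 2 fell in LPS-octanal against untreated, and 1 rose in LPS against untreated (15.2% of all genes). The part of these shifts in the results below was not tested, and in bulk RNA fewer cells of a type and less RNA per cell cannot be told apart.

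In LPS against untreated libraries Mertk, Gas6, Stab1 and Cd36 fell and Tyro3 rose, 5 of the 8 genes, where edgeR called 32.8% of all 15447 genes tested. For the falls that is 4 of 8 against 17.6% of all genes, and for the rise 1 of 8 against 15.2%. The median log2 fold change of the 8 genes was -1.54, and that of all genes 0.01. In LPS-octanal against untreated libraries 3 of 8 fell, Mertk, Gas6 and Cd36, where 6.03% of all genes fell, and 0 of 8 rose, where 2.63% rose (8.67% called in either direction). Their median was -1.45, and that of all genes -0.01. The number of the 8 called here went to 1 without LPS-octanal replicate 2 and to 6 by DESeq2. That of all genes, 1339, went to 298 without LPS-octanal replicate 2, to 623 to 810 without LPS-octanal replicates 1 or 3, LPS replicates 2 or 3 or untreated replicate 1, and to 2137 without untreated replicate 2.

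In LPS-octanal against LPS libraries edgeR called 0 of the 8, where it called 0% of all genes, with a lowest adjusted p of 0.051 over all genes. At an unadjusted p under 0.05 there were 1 of the 8, Stab1, and 3450 of all genes (22.3%). DESeq2 called 1 of the 8 and 1800 of all genes, and limma-voom called 0 of either. Of all genes 584 were called without LPS-octanal replicate 1, 527 without untreated replicate 2, 109 without untreated replicate 1 and 3 without LPS-octanal replicate 2. The median log2 fold change of the 8 was -0.25, and that of all genes -0.05. Any pair of these comparisons shares a group of libraries, so they are not independent of each other. The number of all genes called in LPS against untreated, 5072, went to 2387 without LPS replicate 1, to 2926 without LPS replicate 3 and to 3284 without LPS replicate 2.

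**Figure D1:**
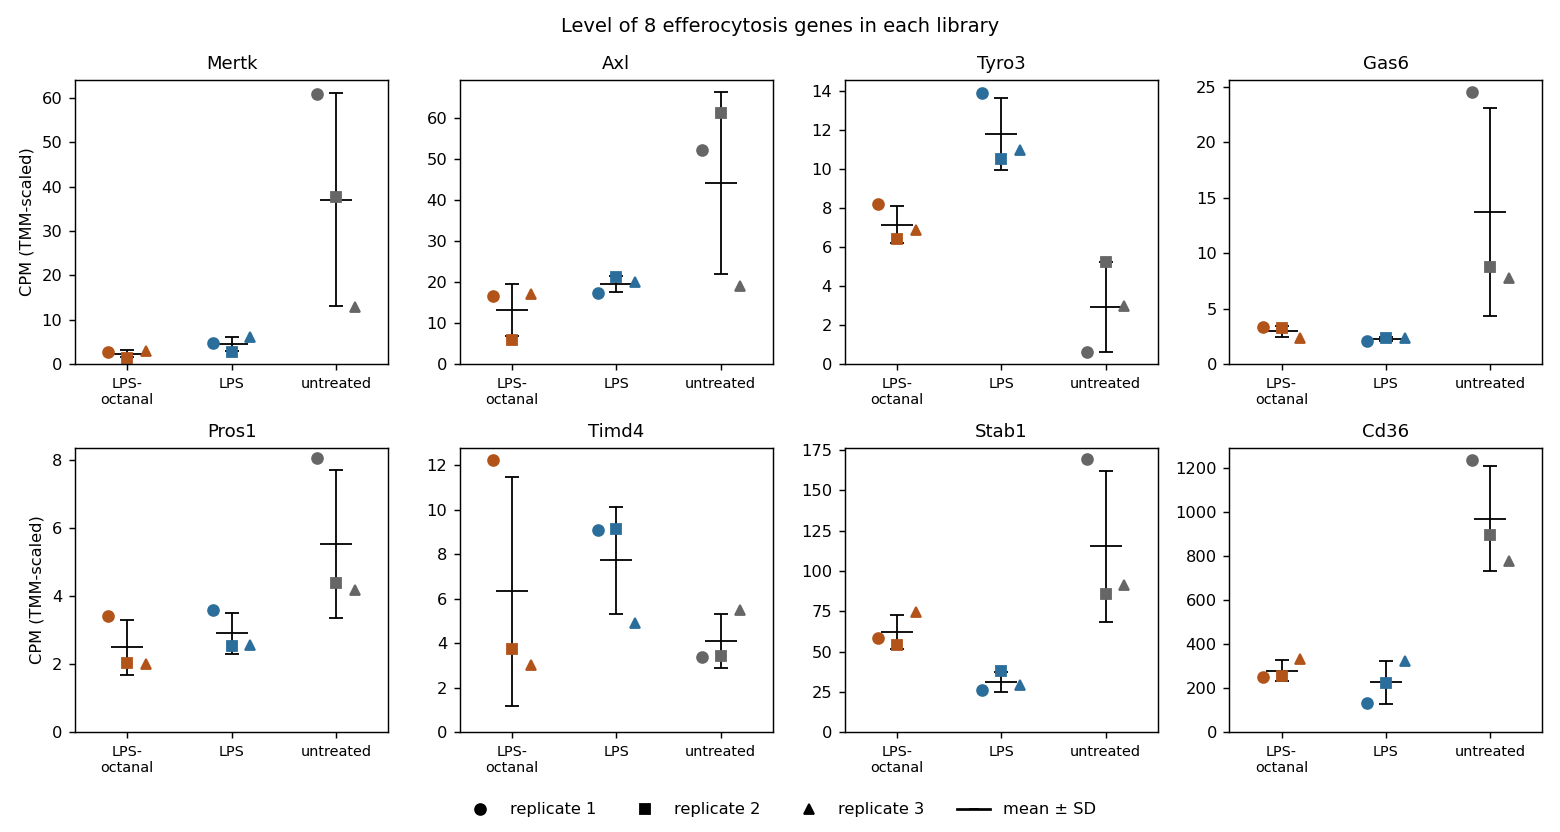
Level of each of the 8 genes in CPM (vertical axis, linear from 0, scaled per gene) in LPS-octanal, LPS and untreated libraries, with a symbol per replicate and bars for mean ± SD. The LPS and LPS-octanal libraries of Mertk, Gas6, Stab1 and Cd36 lie below all untreated libraries, and those of Tyro3 lie above them.

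The groups did not overlap for 6 of the 8 genes in LPS against untreated, 5 lower (24.8% of all genes) and Tyro3 higher (26.7%). In LPS-octanal against untreated 6 were lower (16.3% of all genes) and Tyro3 was higher (13.5%). In LPS-octanal against LPS, Axl and Tyro3 were lower (19.9% of all genes) and Stab1 was higher (18.3%), shares of the 8 close to the background.

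Mertk, Gas6 and Cd36 were the genes called lower in both comparisons with untreated cells, which share the untreated libraries. The 250 bases upstream of their RefSeq start sites are shown for that reason (RefSeq, assembly GRCm38.p6), at chr2:128698665-128698914 on the plus strand for Mertk, chr8:13494536-13494785 on the minus strand for Gas6 and chr5:17835897-17836146 on the minus strand for Cd36. The Cd36 window lies inside the annotated gene, whose 5′ end on the minus strand is at 17888801, so it belongs to an internal start. Each is written 5′ to 3′ along its gene, and capitals mark matches on either strand to the GC box GGGCGG, the NF-kappaB pattern GGGANNNNCC or the nuclear receptor half-site AGGTCA.
Mertk: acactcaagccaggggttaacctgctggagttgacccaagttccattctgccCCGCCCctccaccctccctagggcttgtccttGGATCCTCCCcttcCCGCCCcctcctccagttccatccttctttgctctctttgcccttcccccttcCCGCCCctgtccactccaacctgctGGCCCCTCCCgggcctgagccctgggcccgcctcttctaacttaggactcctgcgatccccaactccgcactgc
Gas6: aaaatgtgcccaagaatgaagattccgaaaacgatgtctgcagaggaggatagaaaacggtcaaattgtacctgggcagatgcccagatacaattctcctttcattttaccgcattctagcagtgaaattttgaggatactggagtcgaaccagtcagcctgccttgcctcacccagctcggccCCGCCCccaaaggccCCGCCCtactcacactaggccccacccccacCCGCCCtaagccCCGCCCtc
Cd36: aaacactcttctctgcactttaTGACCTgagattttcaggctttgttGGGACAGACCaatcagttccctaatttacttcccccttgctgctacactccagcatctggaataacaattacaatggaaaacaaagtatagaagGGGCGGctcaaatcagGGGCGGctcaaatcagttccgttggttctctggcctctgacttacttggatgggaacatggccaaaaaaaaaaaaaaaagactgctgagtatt
The Mertk window held 3 GC boxes, 198, 152 and 99 bases before the start, and 2 NF-kappaB matches at 166 and 74 bases. The Gas6 window held 4 GC boxes and neither of the other motifs. The Cd36 window alone among the 3 held the half-site, 228 bases before the start, beside 1 NF-kappaB match and 2 GC boxes. The capitals thus show no motif other than the GC box in all 3 windows.
All 8 genes had an entry among the promoter sequences. The Tyro3 window, like that of Cd36, lies inside its annotated gene, with 128 bases in annotated exons. A GC box was held by 6 of the 8, these 2 among them, against 32.9% of 27025 mouse promoters of the same length. For the NF-kappaB pattern it was 4 of 8 against 17.3%, for the half-site 2 of 8 against 13.8%, for the PU.1 and ETS core GAGGAA 2 of 8 against 23.1%, and for the TATA box TATAAA 0 of 8 against 13% of promoters. In the windows printed no match overlapped one of another motif. A match is a description of letters, not of binding.

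Mertk, a TAM receptor prominent on resident macrophages (chromosome 2, 128698956 to 128802894 in GRCm38, protein-coding), had the largest edgeR change of the 8 genes in both comparisons with untreated cells, although on log2(FPKM + 1) that of Cd36 was larger in LPS against untreated (-2.08, against -1.94 for Mertk). It was at 2.76, 1.45 and 3.03 CPM in the LPS-octanal libraries. The LPS libraries held 4.78, 2.85 and 6.06 CPM, and the untreated libraries 60.8, 37.6 and 12.8 CPM. The lowest untreated library was thus above every treated one, although untreated libraries spread widely. Mertk fell in LPS-octanal against untreated, with a log2 fold change of -3.95 (standard error, s.e., 0.585, adjusted p = 0.0073), and in LPS against untreated with -3.02 (s.e. 0.557, adjusted p = 0.0055). Both calls held in all 19 alternative settings. LPS-octanal against LPS gave -0.92 (95% interval -2.15 to 0.30, adjusted p = 0.34), with overlapping libraries.

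Axl, the TAM receptor that takes Gas6 but not protein S as its ligand (chromosome 7, 25757273 to 25788705), was at 16.7, 5.88 and 17.2 CPM in LPS-octanal libraries. LPS libraries had 17.3, 21.2 and 20.1 CPM, and untreated libraries 52.2, 61.2 and 19.0 CPM. Untreated replicate 3 lay within the range of the LPS libraries, and LPS-octanal replicate 2 lay far below the other libraries of its group. Axl did not pass the test in any comparison. Its log2 fold change was -1.74 (s.e. 0.479, adjusted p = 0.057) in LPS-octanal against untreated and -1.17 (s.e. 0.470, adjusted p = 0.084) in LPS against untreated, and -0.56 (95% interval -1.62 to 0.50, adjusted p = 0.50) in LPS-octanal against LPS. It was called in 5 and 3 of the 19 alternative settings in the comparisons with untreated cells, among them DESeq2.

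Tyro3, a TAM receptor that like Mertk binds both ligands (chromosome 2, 119797733 to 119818104), went the other way. Its level was 8.20, 6.39 and 6.85 CPM in LPS-octanal libraries. It was 13.9, 10.5 and 11.0 CPM in LPS libraries and 0.619, 5.24 and 2.98 CPM in untreated libraries. The 3 groups were fully apart, highest in LPS and lowest in untreated. Tyro3 rose in LPS against untreated with a log2 fold change of 2.01 (s.e. 0.577, adjusted p = 0.029). The call was lost without any of the LPS replicates or untreated replicate 3 (adjusted p = 0.056 to 0.085) and in a fit of those 6 libraries only (adjusted p = 0.062), and the change was 2.69 without untreated replicate 2. LPS-octanal against untreated gave 1.28 (s.e. 0.569, adjusted p = 0.18), or 1.98 without untreated replicate 2 (adjusted p = 0.053), and LPS-octanal against LPS gave -0.72 (95% interval -1.98 to 0.53, adjusted p = 0.46), which passed in a fit of those 6 libraries only (adjusted p = 0.049).

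T cell markers moved with Tyro3. The 9 T cell markers analysed, all with counts in every library, summed to 1991, 1397 and 1346 CPM in LPS-octanal libraries. In LPS libraries they summed to 2713, 2335 and 2010 CPM, and in untreated libraries to 616, 1457 and 1079 CPM. The leading gene of that sum was Il7r, without which it was 846, 628 and 575 CPM in LPS-octanal, 1155, 1065 and 933 in LPS and 116, 535 and 385 in untreated libraries. Within each group the library with the most Tyro3 also had the highest sum, with and without Il7r. The genes nearest to Tyro3 in pattern over the 9 libraries were Ephb6, Ablim1 and Vipr1, with a root mean square difference of 0.09, 0.10 and 0.12 in centred log2 CPM. The part of T cells in the level of Tyro3 was not tested.

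**Figure D2:**
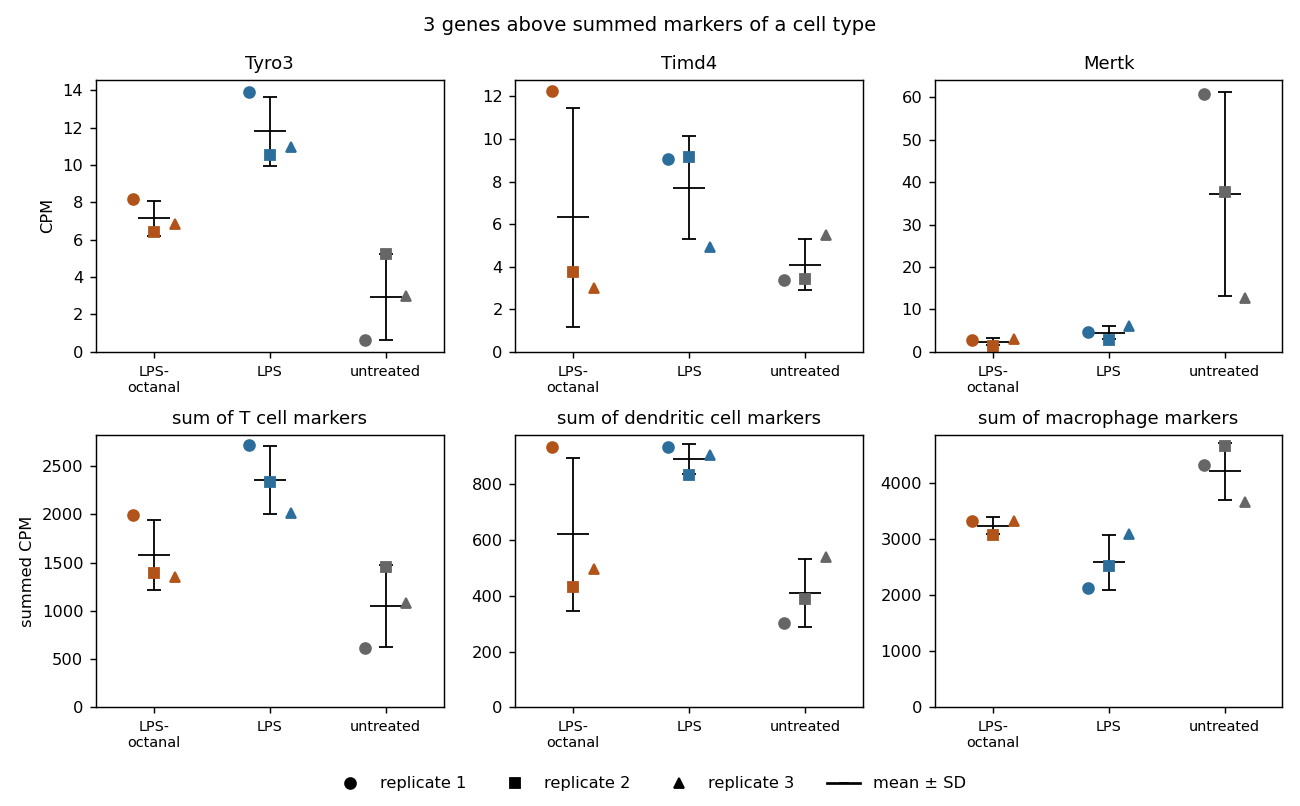
Upper row: Tyro3, Timd4 and Mertk in CPM, and lower row: summed CPM of T cell, dendritic cell and macrophage markers, in LPS-octanal, LPS and untreated libraries, with a symbol per replicate and bars for mean ± SD (linear axes from 0). LPS-octanal replicate 1 is the highest of its group for both Timd4 and the dendritic cell markers, at 12.2 CPM and 933 summed CPM, of which Ccr7 is the larger part, as Hmox1 is in the macrophage sum of the treated groups.

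FPKM (fragment counts scaled for gene length and depth) allows levels to be set side by side between genes. The TAM receptors summed to 5.01 ± 1.73 FPKM in LPS-octanal, 8.46 ± 0.362 in LPS and 18.3 ± 9.71 in untreated libraries (SD, n = 3 each). Mertk made up 10.2% of that sum in LPS-octanal, 12.2% in LPS and 41.6% in untreated libraries. Tyro3 made up 35.3%, 34.2% and 4.97% in the same groups. Axl averaged 54.5% (41.6% to 62.6% among libraries), 53.6% (46.9% to 60.5%) and 53.4% (46.5% to 59.1%). On this scale Axl was thus the leading TAM receptor by mean in each group, with Tyro3 next in the treated groups and Mertk next in untreated cells. Single libraries differed, as Tyro3 led in LPS-octanal replicate 2 (48.3%) and Mertk in untreated replicate 1 (53.0%).

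**Figure D3:**
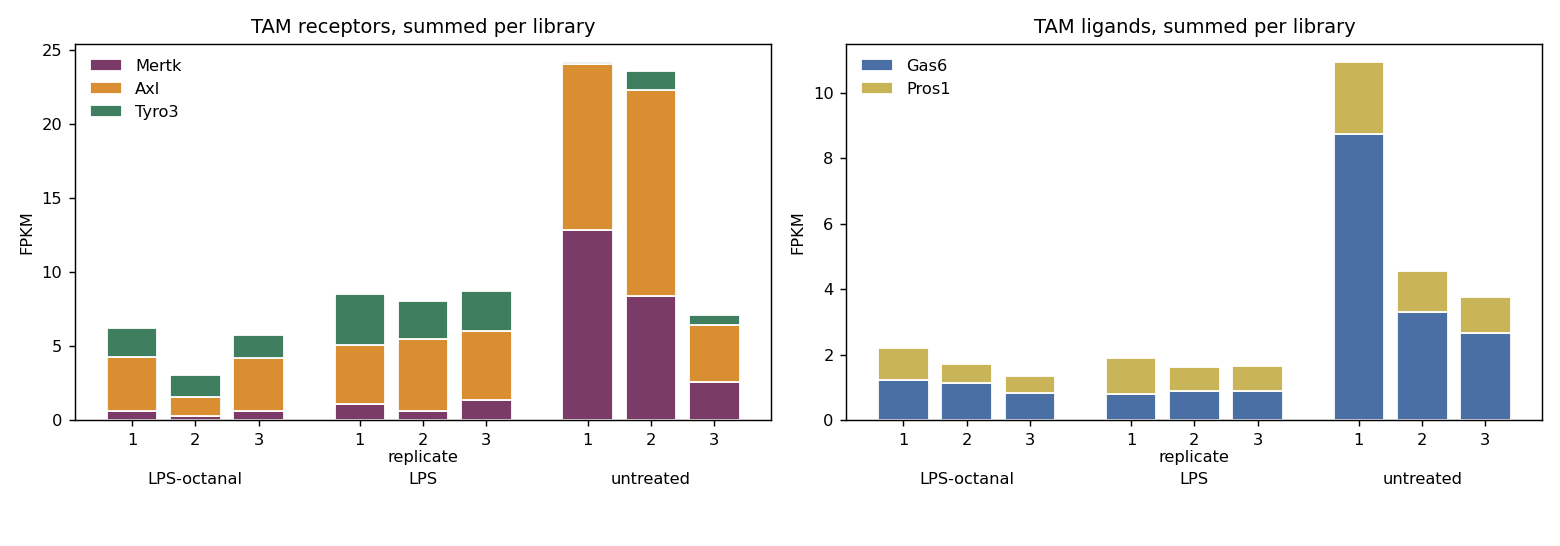
FPKM of the TAM receptors (left, Mertk, Axl and Tyro3 stacked) and of their ligands (right, Gas6 and Pros1 stacked) in each library, replicates 1 to 3 of LPS-octanal, LPS and untreated. The receptor sum of the untreated libraries spans 7.10 to 24.2 FPKM, and Mertk averages 0.512 FPKM in LPS-octanal, 1.04 in LPS and 7.94 in untreated libraries.

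Gas6, the vitamin K-dependent ligand of all TAM receptors (chromosome 8, 13465374 to 13494490), was low in both treated groups, at 3.31, 3.22 and 2.37 CPM in LPS-octanal libraries. It had 2.11, 2.38 and 2.32 CPM in LPS libraries and 24.5, 8.77 and 7.79 CPM in untreated libraries. The treated libraries lay close together and below all untreated libraries, of which replicate 1 was far above the others. Gas6 fell in LPS-octanal against untreated with a log2 fold change of -2.20 (s.e. 0.428, adjusted p = 0.019) and in LPS against untreated with -2.59 (s.e. 0.435, adjusted p = 0.0039). Without untreated replicate 1 these were -1.49 and -1.90, both still called. The call in LPS-octanal against untreated was lost without LPS-octanal replicate 2 (adjusted p = 0.070) or 3 (adjusted p = 0.058) and in a fit of those 6 libraries only (adjusted p = 0.059). LPS-octanal against LPS gave 0.39 (95% interval -0.56 to 1.34, adjusted p = 0.60). Gas6 shares 34 exon bases with Tmem255b on the other strand, which had 0 counts.

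Pros1, which encodes protein S, a ligand of Mertk and Tyro3 and a cofactor of anticoagulation (chromosome 16, 62854307 to 62929346), had 3.42, 2.04 and 2.01 CPM in LPS-octanal libraries. Its level was 3.60, 2.54 and 2.57 CPM in LPS libraries and 8.04, 4.39 and 4.18 CPM in untreated libraries. Both treated groups lay below all untreated libraries, by a small margin beside the spread of the untreated group. The test was not passed, with a log2 fold change of -1.15 (s.e. 0.351, adjusted p = 0.075) in LPS-octanal against untreated and -0.93 (s.e. 0.349, adjusted p = 0.069) in LPS against untreated. DESeq2 called both. LPS-octanal against LPS gave -0.22 (95% interval -1.01 to 0.57, adjusted p = 0.73). On the FPKM scale both ligands together averaged 1.76 in LPS-octanal, 1.73 in LPS and 6.42 in untreated libraries, of which Gas6 made up 61.2%, 50.7% and 74.3%.

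Timd4, which encodes the phosphatidylserine receptor Tim-4 (chromosome 11, 46810800 to 46844332), showed no group pattern beyond its spread. It had 12.2, 3.73 and 3.00 CPM in LPS-octanal libraries. In LPS libraries it had 9.08, 9.14 and 4.92 CPM, and in untreated libraries 3.36, 3.44 and 5.49 CPM. All groups overlapped, and replicate 1 of LPS-octanal was more than 3 times as high as the others of its group. LPS-octanal against untreated gave a log2 fold change of 0.63 (adjusted p = 0.47), LPS against untreated 0.91 (adjusted p = 0.21) and LPS-octanal against LPS -0.29 (adjusted p = 0.77). The first turned to -0.27 without LPS-octanal replicate 1 and the last to 0.056 without LPS-octanal replicate 3. The 10 dendritic cell markers summed to 933, 430 and 495 CPM in LPS-octanal libraries, 933, 832 and 903 CPM in LPS libraries and 301, 388 and 540 CPM in untreated libraries, with all 10 present in every library. Most of that sum was Ccr7, which mature dendritic cells share with T cells, at a mean of 552 CPM in LPS-octanal, 819 in LPS and 314 in untreated libraries. In the same groups Flt3 averaged 34.0, 32.1 and 29.1 CPM, Zbtb46 16.0, 21.9 and 14.3 CPM and Itgax 9.89, 8.28 and 21.5 CPM. Xcr1 and Clec9a averaged at most 1.02 CPM in any group. The other 9 markers summed to 105, 46.5 and 50.7 CPM in LPS-octanal libraries, 67.5, 74.9 and 69.4 in LPS libraries and 107, 63.1 and 116 in untreated libraries. The high Timd4 library was the highest of its group with and without Ccr7, but without it 2 of 3 untreated libraries lay above all LPS libraries. The part of dendritic cells was not tested.

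Stab1, which encodes the scavenger receptor stabilin-1 (chromosome 14, 31139013 to 31168641), was intermediate in LPS-octanal libraries, at 58.1, 54.3 and 74.3 CPM. LPS libraries had 25.9, 38.1 and 28.9 CPM, and untreated libraries 169, 85.7 and 91.0 CPM. The 3 groups did not overlap. Stab1 fell in LPS against untreated with a log2 fold change of -1.90 (s.e. 0.279, adjusted p = 0.0023), in all 19 alternative settings as well. LPS-octanal against LPS gave 1.01 (s.e. 0.273, 95% interval 0.39 to 1.62), with an unadjusted p of 0.0051 and an adjusted p of 0.092. DESeq2 (adjusted p = 0.0066) and a fit of those 6 libraries only (adjusted p = 0.036) called it. LPS-octanal against untreated gave -0.89 (s.e. 0.271, adjusted p = 0.075), which DESeq2 called (adjusted p = 0.020). Stab1 shares 112 exon bases with Nt5dc2 on the other strand, and the strand setting of the counting is unknown here. Stab1 is also a gene of splenic sinus endothelium. The 8 endothelial markers, of which 7 to 8 had counts in a library, summed to 110 to 166 CPM in LPS-octanal, 113 to 131 in LPS and 166 to 225 in untreated libraries, mostly Pecam1 and Vwf, with Cdh5 at a mean of 1.76 CPM at most. In the same groups Pecam1 averaged 55.4, 68.5 and 35.8 CPM, and Vwf 73.1, 42.9 and 123 CPM. Of the 7 tested, 3 fell and 1 rose in LPS against untreated, where 17.6% of all genes fell and 15.2% rose. In LPS-octanal against untreated 1 fell and 0 rose, where 6.03% of all genes fell and 2.63% rose. The part of such cells was not tested.

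Cd36, a scavenger receptor for oxidised lipids and fatty acids that also takes part in binding dying cells (chromosome 5, 17781690 to 17888801), was the most abundant of the 8 per length. It averaged 94.0 FPKM in LPS-octanal, 80.0 in LPS and 325 in untreated libraries. In CPM it had 249, 257 and 333 in LPS-octanal libraries, 131, 224 and 324 in LPS libraries, and 1237, 896 and 776 in untreated libraries. Treated libraries overlapped each other and lay below all untreated ones. Cd36 fell in LPS-octanal against untreated with a log2 fold change of -1.79 (s.e. 0.318, adjusted p = 0.014) and in LPS against untreated with -2.10 (s.e. 0.321, adjusted p = 0.0026). The call in LPS-octanal against untreated was lost without LPS-octanal replicate 2 (-1.74, adjusted p = 0.069). LPS-octanal against LPS gave 0.30 (95% interval -0.40 to 1.00, adjusted p = 0.58).

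**Figure D4:**
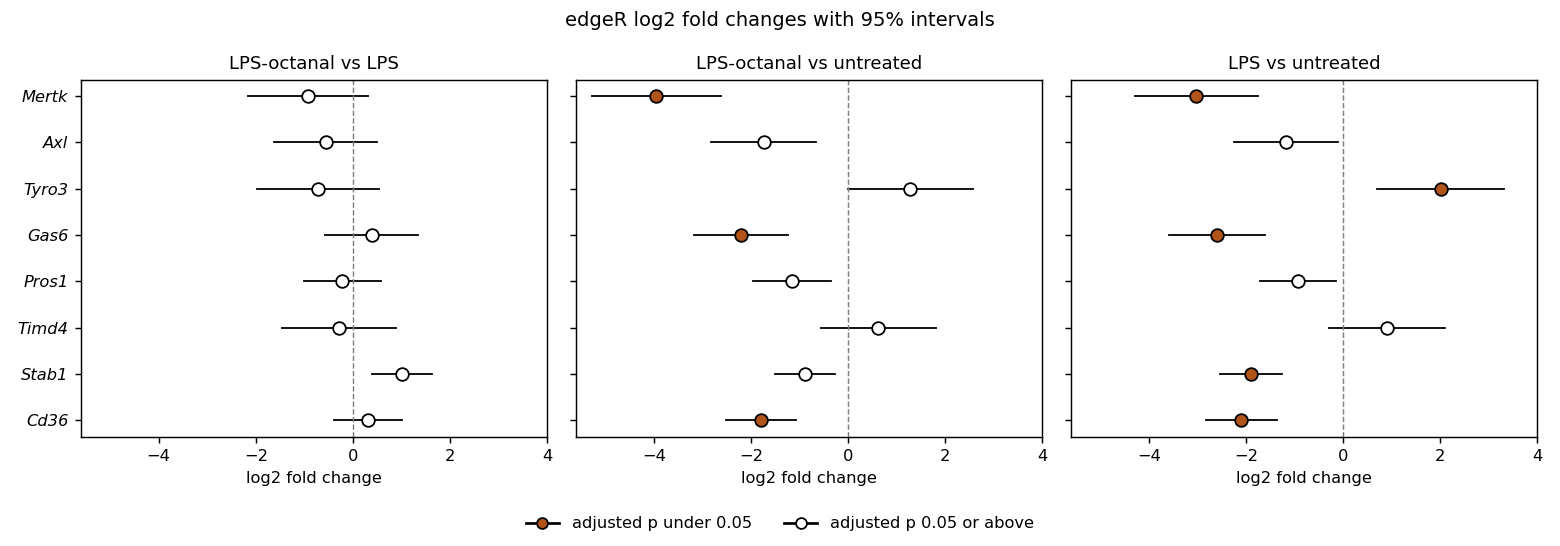
Log2 fold changes from edgeR (horizontal axis) with 95% intervals for the 8 genes in each comparison, filled where the adjusted p was under 0.05. No point is filled in LPS-octanal against LPS, where the intervals of all genes but Stab1 span 0.

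Macrophage markers stood beside the falls of Mertk, Stab1, Cd36 and Gas6. The 15 macrophage markers, of which 14 to 15 had counts in a library, summed to 3068 to 3326 CPM in LPS-octanal, 2134 to 3097 in LPS and 3655 to 4651 in untreated libraries. Much of that sum was Hmox1, a stress-inducible heme oxygenase gene that was not called in either comparison, at a mean of 1923 CPM in LPS-octanal, 1689 in LPS and 1814 in untreated libraries. The other 14 markers summed to 1190 to 1387 CPM in LPS-octanal, 618 to 1071 in LPS and 2051 to 2901 in untreated libraries. Of the 14 tested, 8 fell and 1 rose in LPS-octanal against untreated, where 6.03% of all genes fell and 2.63% rose. In LPS against untreated 7 fell and 0 rose, where 17.6% of all genes fell and 15.2% rose. The macrophage marker Adgre1 went the other way, at a mean of 262 CPM in LPS-octanal, 152 in LPS and 99.6 in untreated libraries. Cd5l, a protein of spleen and liver macrophages, was among the genes nearest to Mertk in pattern, with a root mean square difference of 0.40, as was Egr3 at 0.51. Nearest were Trim47, Myo18b and Serpinb6a for Axl, Serpinb8, Fam83f and S100a1 for Gas6, Akap1, Prdx4 and Capn2 for Pros1, Il4i1, Adam23 and Fscn1 for Timd4, Pam, Hnmt and Rnpep for Stab1, and Plxnb2, Hip1 and Thbd for Cd36. These likenesses are over 9 libraries and 9790 candidate genes, and all share the difference between groups. Whether fewer macrophages contribute to the falls was not tested.

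Other genes of the pathway were followed in 6 lists. Of 22 other receptors and bridging proteins, 13 fell and 0 rose in LPS-octanal against untreated, where 6.03% of all genes fell and 2.63% rose, with a median log2 fold change of -1.23. In LPS against untreated 16 fell and 1 rose, where 17.6% of all genes fell and 15.2% rose, with a median of -2.03. Among these, Lrp1, an endocytic receptor that takes up calreticulin-marked cells, averaged 275 ± 6.58 CPM in LPS-octanal, 144 ± 28.1 in LPS and 915 ± 319 in untreated libraries. Its log2 fold changes were -1.73 (s.e. 0.241, adjusted p = 0.0057) in LPS-octanal and -2.67 (s.e. 0.249, adjusted p = 6.3e-04) in LPS, both against untreated. Trem2, a lipid receptor of macrophages (-3.79, s.e. 0.624), and Itgb5, a subunit of the integrin that binds Mfge8-coated cells (-2.15, s.e. 0.315), fell in LPS-octanal against untreated. Anxa1, a pro-resolving annexin (-4.10, s.e. 0.445), and Cd300lf, a phosphatidylserine-binding receptor (-2.40, s.e. 0.222), fell in LPS against untreated. C1qa, C1qb, C1qc and Trem2 belong to this list and to the macrophage markers above, and all fell in both comparisons with untreated cells. The falls counted in the 2 lists are therefore partly of the same genes. Without LPS-octanal replicate 2 the count of 13 was 2 and Trem2 lost its call (adjusted p = 0.055). It was 7 without LPS-octanal replicate 1, and 8 without LPS-octanal replicate 3 and without untreated replicate 1.

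Of 18 genes of the engulfment machinery, 7 fell and 0 rose in LPS against untreated, where 17.6% of all genes fell and 15.2% rose. The 7 of 18 called in either direction are near the 32.8% of all genes. The median was -0.39, and the falls included the Rac activators Dock1 (-2.09, s.e. 0.418) and Vav3 (-0.98, s.e. 0.129) and the phospholipase gene Plcg2 (-1.27, s.e. 0.219). Without untreated replicate 1 Dock1 was at -1.47, and without LPS replicate 1 the count was 4. In LPS-octanal against untreated edgeR called 0 of 18, where 8.67% of all genes were called, with 6 at an unadjusted p under 0.05 (27.4% of all genes) and a median of -0.08, and DESeq2 called 1 and limma-voom 0. It was 2 without untreated replicate 2 and 1 without untreated replicate 3.

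Of 14 genes of phagosome maturation, 7 fell and 1 rose in LPS against untreated, where 17.6% of all genes fell and 15.2% rose, with a median of -0.67. The falls included Atg5 (-0.97, s.e. 0.181) and Atg7 (-1.41, s.e. 0.223), which attach LC3 to phagosome membranes, and the lysosomal membrane protein gene Lamp2 (-0.98, s.e. 0.192). The count of 8 was 5 without LPS replicate 1, LPS replicate 2 or untreated replicate 3 and 4 without LPS replicate 3. In LPS-octanal against untreated 1 of 14 fell, the mitochondrial carrier gene Ucp2 (-0.62, s.e. 0.151, adjusted p = 0.039), with a median of -0.10, a share near the 6.03% of all genes that fell. That call was lost without LPS-octanal replicates 2 or 3, any LPS replicate, or untreated replicates 1 or 3 (adjusted p = 0.053 to 0.13), on both FPKM scales and in a fit of those 6 libraries (adjusted p = 0.058 to 0.10).

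Of 10 find-me receptors and do-not-eat-me genes, 4 fell and 2 rose in LPS against untreated, where 17.6% of all genes fell and 15.2% rose, with a median of -0.62. The share that rose is near that background. The falls of lowest p were those of the sphingosine phosphate receptor gene S1pr2 (-1.28, s.e. 0.190), the nucleotide receptor gene P2ry6 (-2.47, s.e. 0.453) and Sirpa (-1.16, s.e. 0.243), the receptor for the do-not-eat-me protein Cd47. The count of 6 was 3 without LPS replicate 1. In LPS-octanal against untreated edgeR called 0 of 10, where 8.67% of all genes were called, with 3 at an unadjusted p under 0.05 (27.4% of all genes) and a median of -0.20, and DESeq2 called 1 and limma-voom 0.

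Of 13 nuclear receptors and transcription factors, 3 fell and 0 rose in LPS-octanal against untreated, where 6.03% of all genes fell and 2.63% rose, with a median of -0.12. Among them were Pparg (-2.41, s.e. 0.198), a lipid-activated nuclear receptor, and the liver X receptor gene Nr1h3 (-1.28, s.e. 0.316, adjusted p = 0.040). In LPS against untreated 5 fell and 1 rose, where 17.6% of all genes fell and 15.2% rose, with a median of -0.20, and the falls included Pparg (-2.66, s.e. 0.200) and Rxra (-1.26, s.e. 0.218). Pparg averaged 4.98 ± 0.299 CPM in LPS-octanal, 4.19 ± 0.756 in LPS and 26.4 ± 5.05 in untreated libraries. Nr1h3 lost its call in LPS-octanal against untreated without any LPS-octanal replicate, LPS replicates 2 or 3, or untreated replicate 1 (adjusted p = 0.056 to 0.12). That call was also lost by limma-voom, on both FPKM scales and in a fit of those 6 libraries (adjusted p = 0.063 to 0.084). The count of 3 was 5 without untreated replicate 2.

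Of 9 tested sheddases and feedback genes, 1 fell and 2 rose in LPS-octanal against untreated, where 6.03% of all genes fell and 2.63% rose, with a median of 0.40. The signalling inhibitors Socs3 (1.73, s.e. 0.331, adjusted p = 0.018) and Socs1 (1.12, s.e. 0.270, adjusted p = 0.038) rose and Lgals3, which encodes galectin-3, a ligand of Mertk, fell (-1.52, s.e. 0.188). In LPS against untreated 3 fell and 2 rose, where 17.6% of all genes fell and 15.2% rose, with a median of -0.23, among them Socs3 (1.63, s.e. 0.330), Lgals3 (-2.57, s.e. 0.195) and the metalloprotease gene Adam9 (-0.65, s.e. 0.123). Socs3 lost its call in LPS-octanal against untreated without LPS-octanal replicate 2 (adjusted p = 0.058) or untreated replicate 1 (adjusted p = 0.061), which left a count of 1. Socs1 lost it without LPS-octanal replicates 1 or 2, any LPS replicate, or untreated replicates 1 or 3 (adjusted p = 0.057 to 0.11) and in a fit of those 6 libraries (adjusted p = 0.094). Without LPS replicate 1 the count of 5 in LPS against untreated was 3.

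In LPS-octanal against LPS edgeR called 0 genes in each of the 6 lists, and 0% of all genes. The lowest adjusted p over all genes tested was 0.051, just above the threshold, and Cd300lf had that value (1.71, s.e. 0.217). In its list 13 of 22 changes were positive. At an unadjusted p under 0.05 there were 9 of 22 other receptors and bridging proteins, 7 of 18 engulfment, 7 of 14 phagosome, 4 of 10 find-me and do-not-eat-me, 2 of 13 nuclear receptor and factor, and 4 of 9 sheddase and feedback genes, where 22.3% of all genes were under it. DESeq2 called 7, 6, 6, 4, 2 and 4 of these and limma-voom 0 in each. The medians were 0.16, 0.27, 0.49, 0.58, 0.01 and 0.22 in that order. Without LPS-octanal replicate 1 edgeR called 2, 3, 2, 1, 1 and 1 genes of these lists, and without untreated replicate 2 it called 5, 3, 1, 1, 0 and 1. Without untreated replicate 1 it called 2 other receptors and 1 sheddase or feedback gene.

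**Figure D5:**
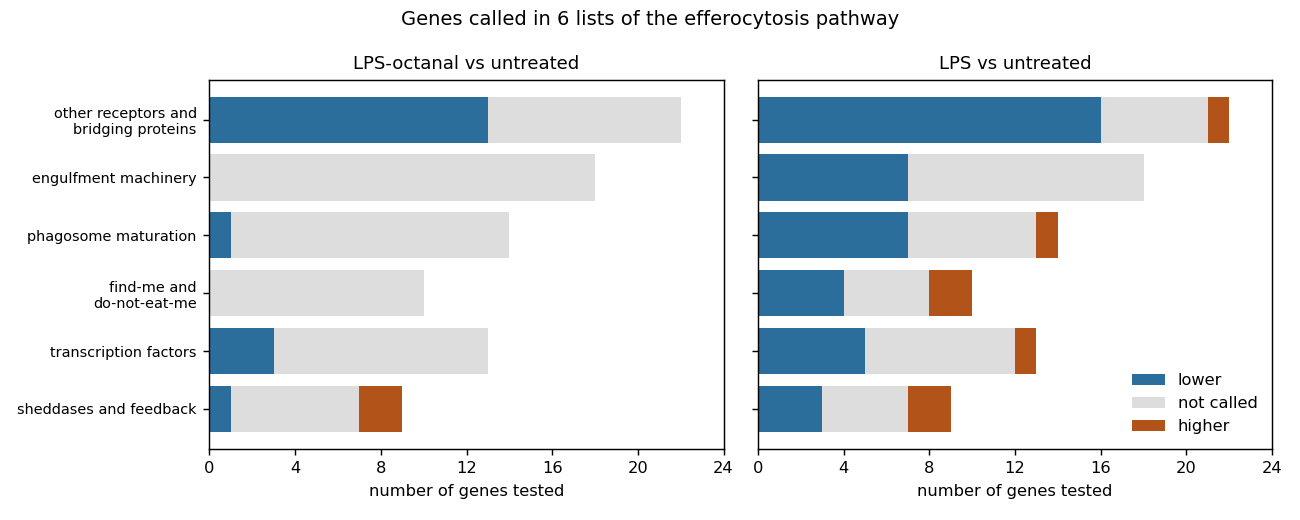
Number of genes tested in each of the 6 pathway lists (horizontal axis), split into lower, not called and higher at an adjusted p under 0.05, for LPS-octanal against untreated (left) and LPS against untreated (right). Falls make up 13 of 22 other receptors and bridging proteins on the left and 16 of 22 on the right.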

How the data were processed

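RNA was extracted with TRIzol and mRNA libraries were made for Illumina sequencing, per the labels' protocols. The authors deposited whole-number counts for each gene in each library, not normalized as the file headers and values show, together with FPKM, which per the file headers the authors normalized for length and depth. The submitters' processing notes name GRCm38 as genome build; the aligner, counter and strand setting are not stated in the labels or headers. Positions came from GENCODE annotation of GRCm38, in which 22021 of 22035 Ensembl identifiers matched. A further 4735 rows were loci without annotation, and 10 lines without values were left out.

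The counts went through edgeR 4.0.16 (R 4.3.3) with TMM scaling (factors 0.923 to 1.07). filterByExpr kept 15447 genes, at least 99.9% of the counts in each library. A quasi-likelihood fit across the 9 libraries, with group means, tested each gene, and a gene was called at a p under 0.05 after Benjamini-Hochberg adjustment over all genes tested. CPM were scaled by TMM. The fit was tested on simulated data, with 100 genes changed 2-fold and 100 changed 4-fold per comparison. It recovered 26 to 40 of the former and 64 to 74 of the latter, with 3 to 8 false calls, so many changes of such size went uncalled there. All other genes, of 15170 to 15204 tested, were left unchanged, and the adjustment of p depends on the share changed. In LPS against untreated 5072 genes were called, so the shares recovered need not hold for the real libraries. Alternatives were DESeq2 1.42.0, limma 3.58.1 on counts (voom) and on log2(FPKM + 1) or log2(FPKM + 0.1), other filters and scaling, fits of the compared libraries only, and each replicate left out. Named genes were the 8, up to 3 called genes of lowest p per pathway list and comparison, and the 3 genes nearest each of the 8 in centred log2 CPM among genes of at least 5 CPM. The 8 genes, the lists and the tests were chosen with earlier results of these data known, and no list was tested as a set. Between replicates of a group the chi-square per degree of freedom was 45.0 to 152, far beyond counting error. Trac and Ighm were not analysed here, and 1 gene that the naming rule takes is not reported here.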

Additional observations from a re-analysis of the deposited data

How the results depend on the processing

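Over the 8 genes, 427 of 456 log2 fold changes under 19 alternative settings kept their direction and their side of the threshold, 18 gained a call, 9 lost one and 2 reversed. Both were of Timd4, which ran from -1.16 to 0.056 in LPS-octanal against LPS and from -0.27 to 0.94 against untreated as single libraries were left out. Of 532 values for pathway genes, whose alternatives were chosen after seeing the data, 33 lost a call and 499 did not. The number of all genes called in LPS-octanal against LPS, 0 here, was 1800 by DESeq2, 279 without a filter on low counts, 67 with a filter of 1 CPM, 1380 in a fit of those 6 libraries and 118 without unannotated loci, and in LPS-octanal against untreated 2798 by DESeq2 and 404 in a fit of those 6 libraries. The number of the 8 genes called in LPS-octanal against LPS was 1 by DESeq2 and 2 in a fit of those 6 libraries, and against untreated it was 6 by DESeq2. With libraries left out, genes called ranged from 2387 to 5658 in LPS against untreated, 0 to 584 in LPS-octanal against LPS and 298 to 2137 in LPS-octanal against untreated. Of the 8 genes, 4 to 6, 0 and 1 to 4 were called in these comparisons. In the list of other receptors, LPS-octanal against LPS gave 7 genes by DESeq2, 4 without a filter, 1 at 1 CPM, 6 in a fit of those 6 libraries, 1 without unannotated loci and 0 to 5 with libraries left out. The same comparison gave 6 engulfment genes by DESeq2, 1 without a filter, 5 in a fit of those 6 libraries and 0 to 3 with libraries left out, and for phagosome genes 6 by DESeq2, 4 in that fit and 0 to 2 with libraries left out. It gave 4 find-me genes by DESeq2, 1 without a filter and 3 in that fit, 2 and 1 nuclear receptor genes by DESeq2 and in that fit, and 4 sheddase and feedback genes by DESeq2, 1 without a filter, 2 in that fit and 1 without unannotated loci, each 0 to 1 with libraries left out. Against untreated, LPS-octanal gave 5 other receptors in a fit of those 6 libraries and 2 to 12 with libraries left out, 1 engulfment gene by DESeq2, without a filter, at 1 CPM and without unannotated loci and 0 to 2 with libraries left out, 0 phagosome genes on both FPKM scales and in that fit and 0 to 1 with libraries left out, 1 find-me gene by DESeq2, 5 nuclear receptor genes by DESeq2 and 2 to 5 with libraries left out, and 1 to 3 sheddase genes. LPS against untreated gave 4 to 8 engulfment, 4 to 9 phagosome, 3 to 7 find-me and 3 to 5 sheddase genes with libraries left out. On log2(FPKM + 1), 58.9% of calls in LPS against untreated were rises, against 46.4% in edgeR, with the median of all genes shifted by 0.11. Same-numbered libraries did not deviate together (correlations -0.09 to 0.18, and 0 libraries closest to their own number). The log2(FPKM + 1) scale gave smaller changes, such as -2.36 and -1.94 for Mertk and -1.38 and -1.52 for Gas6 in LPS-octanal and in LPS against untreated, and 1.27 for Tyro3 in LPS. With a replicate block 4257, 0 and 923 genes and 6, 0 and 4 of the 8 were called, Pros1 among them (adjusted p = 0.030 in LPS and 0.036 in LPS-octanal, both against untreated), and the other receptors called in LPS-octanal against untreated were 8. Under it Nr1h3 (adjusted p = 0.083) and Socs1 (adjusted p = 0.070) lost their calls in LPS-octanal against untreated. The cause of these shifts was not tested. Genes of a few CPM, such as Pros1 and Gas6 in treated libraries, had fewer counts and so less precise levels.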
